A study of Rattus norvegicus with 24 samples.

Results

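The contractile genes of smooth muscle cells and myofibroblasts were measured in the lungs of rats that had breathed air, crystalline silica, cigarette smoke or both. The set holds 9 of the 30043 genes in the count table, chosen by symbol: Acta2, Actg2, Myh11, Mylk, Lmod1, Tagln, Cnn1, Des and Myocd. Lungs came from 24 male Fischer 344 rats (F344/DuCrl), bought at 3 months of age, with 6 rats in each of 4 groups and 1 library from a piece of each lung. All rats spent 29 weeks in the whole-body exposure schedule. The air group breathed air throughout. The silica group breathed Min-U-Sil5, a respirable crystalline silica dust, at 15 mg/m3 for 6 hours a day on 5 days of week 3, and air in the other weeks. The smoke group breathed cigarette smoke for 3 hours a day on Tuesdays and Fridays, at 40 mg/m3 in the first week and 80 mg/m3 afterwards, with air in week 3. The combined group received the silica week inside the same smoke schedule, except that its first week of smoke was at 45 mg/m3. RNA was total RNA depleted of ribosomal RNA from a mixed piece of lung. Fewer cells of a type and less RNA per cell cannot be told apart in such samples.

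Smooth muscle wraps the airways and blood vessels of the lung, and myofibroblasts are matrix-producing cells that take on part of the same contractile machinery. Contraction starts when a rise in calcium activates myosin light chain kinase (Mylk), whose phosphorylation of the myosin regulatory light chain lets smooth muscle myosin (Myh11) pull on actin filaments. Transcription of much of this machinery is driven by serum response factor bound to a DNA element called the CArG box, with myocardin (Myocd) as its coactivator. Acta2 is the usual marker of myofibroblasts in fibrotic lung, but it is also abundant in ordinary smooth muscle and so does not separate these cells.

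The promoters of 2 members are shown because Acta2 is the gene by which myofibroblasts are usually recognised and Mylk is the member with the clearest difference between groups in these data. RefSeq promoter windows, 250 bases before to 50 bases after the gene start on the GRCr8 assembly, were matched for 5 of the 9 members: Acta2, Actg2, Mylk, Cnn1 and Des. The stretch before the start is printed 5′ to 3′ on the gene's strand, and capitals mark 10-base CArG-like elements. These are CC, then 6 bases of which at least 5 are A or T, then GG, a form that reads the same way on both strands.
Acta2, chr1:241172504-241172753, minus strand: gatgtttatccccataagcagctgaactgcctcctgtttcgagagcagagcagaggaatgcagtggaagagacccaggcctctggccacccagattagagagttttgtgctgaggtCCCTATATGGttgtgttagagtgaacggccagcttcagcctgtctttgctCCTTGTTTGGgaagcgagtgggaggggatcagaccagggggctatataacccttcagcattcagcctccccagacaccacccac
Mylk, chr11:79498575-79498824, minus strand: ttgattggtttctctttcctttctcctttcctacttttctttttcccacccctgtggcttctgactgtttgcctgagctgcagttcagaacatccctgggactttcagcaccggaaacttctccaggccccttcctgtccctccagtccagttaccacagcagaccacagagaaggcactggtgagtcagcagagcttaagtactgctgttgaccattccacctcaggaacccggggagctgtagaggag
The Acta2 window held 2 CArG-like elements, whose first bases lay 134 and 84 bases before the start. Each has 1 inner base that is neither A nor T, so neither is an exact CArG box. A CArG-like element was present in 9.42% of 33469 windows of this length and 2 or more in 0.846%. The other 4 member windows held none, and the exact CArG box (all 6 inner bases A or T, 1.64% of windows) was in none of the 5. A match describes letters only, and no match says only that these letters are not in this window. Each window lies at the start of the whole gene. Any start further inside a gene, such as one that a shorter product of Mylk may use, was not searched.

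Libraries ranged from 21629 to 4687805 counts, with a median of 2335358. The library labelled smoke 2 was the shallowest, with 0 to 4 counts for each member and 44.1% of its counts from the haemoglobin genes Hbb and Hba1, so level ranges below leave it out and fits keep it. A count of 0 in that library allows up to 139 CPM (counts of a gene for every 1000000 counts of its library; 3 counts were taken as the limit that a count of 0 allows, for counting error only). Silica 4 held 280484 counts and each of the others at least 1084815. Mmp12, a macrophage elastase, was at 3.26 CPM in the library labelled silica 1 against at least 57.0 in the other silica libraries, and at 57.9 CPM in the library labelled smoke 1 against at most 11.9 in the other smoke libraries. These 2 libraries go against their labels in that gene, and counts of called members, and ranges that these libraries set, are also given without them. Air 6 had the highest CPM of all 24 libraries for each of the 9 members, and its Col1a1 (type I collagen) stood at 480 CPM against at most 134 elsewhere. The library labelled silica 1 was the highest of the silica libraries for each of the 9 members. CPM is not divided by transcript length, so levels are compared between groups within a gene and not between genes.

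Mylk encodes the kinase that switches smooth muscle myosin on. A longer product of the same gene serves in endothelial and other non-muscle cells, and counts per gene do not separate the forms. The air libraries held 577 to 1021 CPM of Mylk with a median of 686, and the smoke libraries 493 to 718 with a median of 678. The silica libraries held 414 to 691 CPM with a median of 479, and the combined libraries 369 to 508 with a median of 462. Every combined library was below every air library. Such full separation below air occurred in 6.25% of the 13322 genes tested, and Mylk was the member that showed it. The library labelled silica 1, at 691 CPM, lay in the air range, while the other silica libraries stopped at 508. The library labelled smoke 1, at 493 CPM, lay in the combined range, and the other smoke libraries began at 676.

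Myh11, the heavy chain of smooth muscle myosin, ran from 211 to 739 CPM in air (median 243), from 194 to 307 in smoke (median 240), from 161 to 286 in silica (median 192) and from 142 to 224 in combined lungs (median 172). The top of the air range was air 6 alone, since the next air library held 277 CPM. Combined 4, at 224 CPM, was the only combined library inside the air range. Without the library labelled silica 1 the silica range stopped at 207 CPM.

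Acta2 and Actg2 encode the actins of the smooth muscle filament. Acta2, alpha smooth muscle actin, lay between 36.7 and 73.8 CPM in air (median 54.1), 48.1 and 70.5 in smoke (median 59.2), 23.4 and 56.4 in silica (median 40.2), and 38.0 and 52.4 in combined lungs (median 41.2). All 4 ranges overlapped, though without the library labelled silica 1 the silica range stopped at 41.2 CPM, below that of smoke. Actg2, the gamma smooth muscle actin typical of visceral muscle, lay between 15.3 and 48.0 CPM in air (median 20.6), 17.1 and 23.4 in smoke (median 22.1), 3.57 and 23.8 in silica (median 13.1), and 11.4 and 24.9 in combined lungs (median 16.0). The lowest silica value came from silica 4 and rests on 1 count, and without the library labelled silica 1 the silica range stopped at 15.4 CPM. Acta2 and Actg2 encode near-identical proteins, and how well reads were split between the genes was not tested.

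Lmod1, leiomodin, starts the growth of actin filaments in smooth muscle. It ran from 11.7 to 32.9 CPM in air (median 16.6), from 10.0 to 17.8 in smoke (median 12.4), from 7.13 to 15.9 in silica (median 9.34) and from 8.04 to 12.9 in combined lungs (median 9.84). Combined 3 was the only combined library inside the air range, and the other 5 lay below every air library. Without the library labelled silica 1 the silica range stopped at 11.4 CPM, and without that labelled smoke 1 the smoke range began at 11.6.

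Of the proteins that bind the actin filament, Tagln (transgelin) ran from 67.0 to 260 CPM in air with a median of 95.5, and from 71.5 to 113 in smoke with a median of 105. It ran from 32.1 to 105 CPM in silica with a median of 77.8, and from 63.3 to 92.0 in combined lungs with a median of 78.0. Cnn1, calponin, which restrains the myosin ATPase, ran from 10.0 to 34.1 CPM in air with a median of 13.7, and from 10.1 to 19.4 in smoke with a median of 13.2. It ran from 6.77 to 17.2 CPM in silica with a median of 10.7, and from 9.51 to 14.7 in combined lungs with a median of 11.4. For both genes the groups overlapped throughout, and air 6 stood far above the other air libraries. Without the library labelled silica 1 the silica range stopped at 89.1 CPM for Tagln and 11.3 for Cnn1, and without that labelled smoke 1 the smoke range of Cnn1 stopped at 16.0.

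Des, desmin, is the muscle intermediate filament and is shared with cardiac and skeletal muscle. It ran from 44.0 to 109 CPM in air (median 51.7), from 50.7 to 74.3 in smoke (median 59.9), from 36.0 to 64.3 in silica (median 48.6) and from 37.2 to 50.9 in combined lungs (median 42.8). Combined 2, combined 3 and combined 6 lay below every air library and the other combined libraries in the lower part of the air range. The combined and smoke ranges met only at the lowest smoke library, smoke 4. Without the library labelled silica 1 the silica range stopped at 51.6 CPM.

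Myocd, the coactivator of the programme, did not pass the filter on low counts in the main fit, with 0 to 37 counts per library. Its medians were 3.77 CPM in air, 4.02 in smoke, 2.25 in silica and 3.63 in combined lungs, and the 4 ranges overlapped. Fitted with no filter, its silica minus air difference was -0.87 on the log2 scale (adjusted p = 0.241, edgeR quasi-likelihood test) and its combined minus air difference -0.32 (adjusted p = 0.586, edgeR). Without the libraries labelled silica 1, smoke 1 and smoke 2 Myocd passed the filter, and these differences were -1.05 (adjusted p = 0.0965, edgeR) and -0.33 (adjusted p = 0.516). Without air 6 as well they were -0.73 (adjusted p = 0.279, edgeR) and -0.03 (adjusted p = 0.974).

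**Figure D1:**
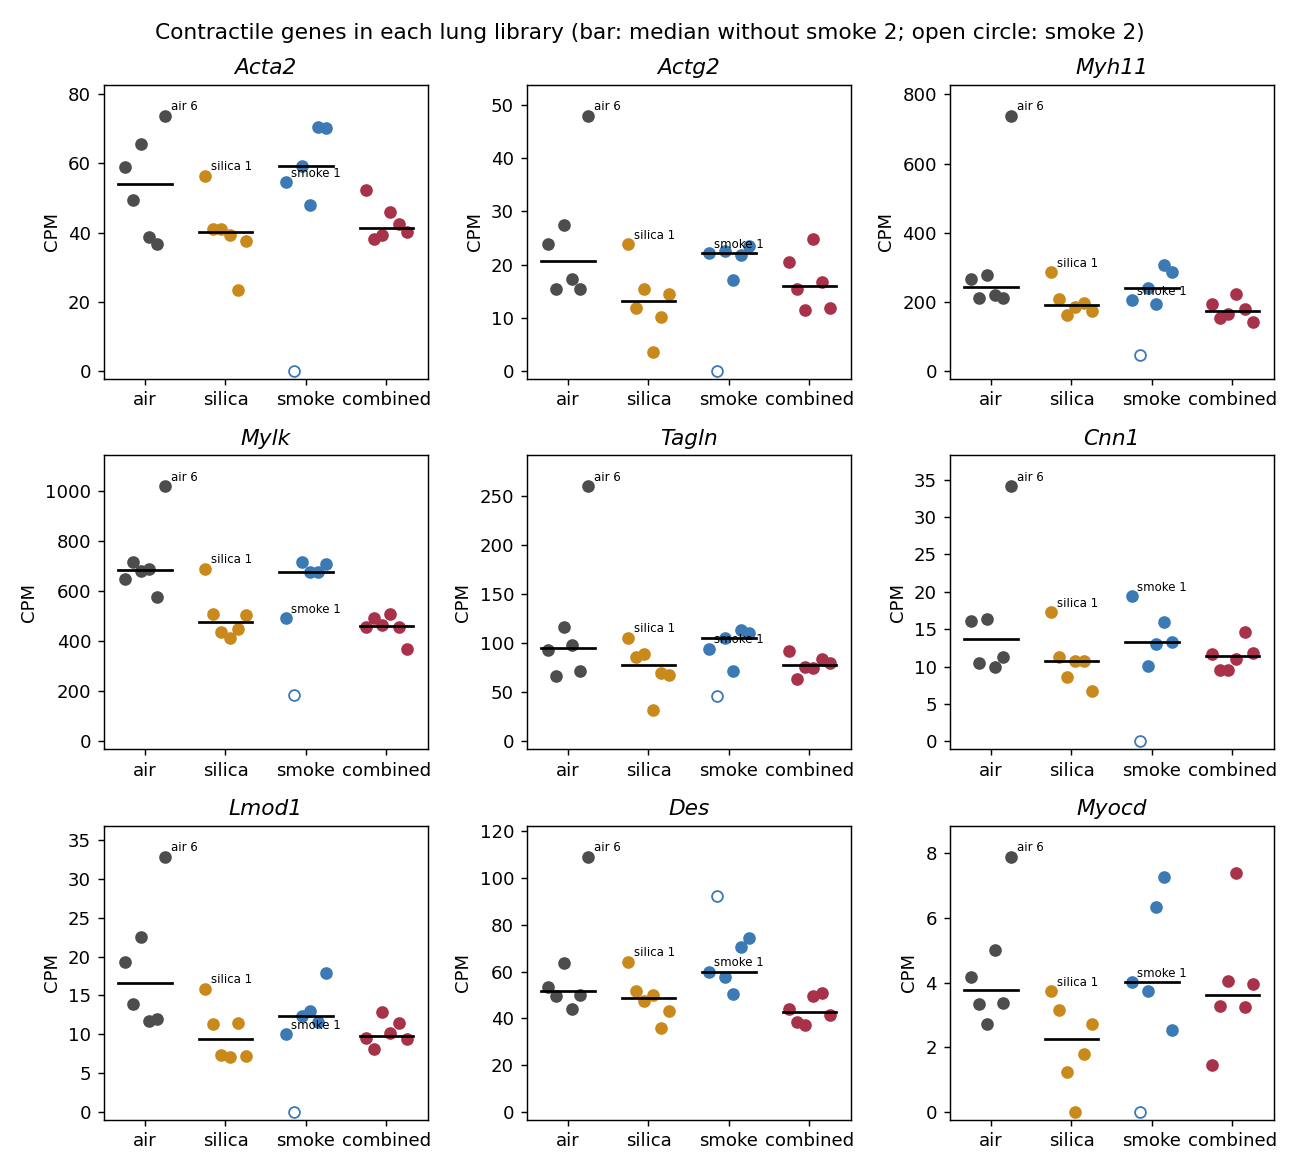
CPM (linear vertical axes, with 0 at the foot) of the 9 contractile genes in each of the 24 libraries, by group; each point is 1 rat, the open circle is smoke 2 and the bar is the group median without it. In the Mylk panel all 6 combined libraries (369 to 508 CPM) sit below all 6 air libraries (577 to 1021), and in every panel the highest point is air 6.

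The silica versus air comparison asked what 1 week of dust, followed by air, left in the lung. Mylk fell by 0.49 ± 0.13 (SE) on the log2 scale, a level 28.7% lower (adjusted p = 0.0396, edgeR quasi-likelihood test over 13322 genes). Lmod1 fell by 0.81 ± 0.23, a level 43.1% lower, at the edge of the threshold of 0.05 (adjusted p = 0.04997, edgeR). So 2 of the 8 tested members were called lower and 0 higher, where 1.01% of all genes tested were called lower and 2.15% higher. The other 6 were not called. Their differences were -0.78 for Actg2, -0.63 for Myh11, -0.60 for Cnn1, -0.55 for Tagln, -0.43 for Acta2 and -0.35 for Des, with adjusted p-values from 0.0836 to 0.266 (edgeR). All 8 fitted differences were below 0, with a median of -0.58, while the median over all genes tested was close to 0. Without the libraries labelled silica 1, smoke 1 and smoke 2, 5 of the 9 members then tested were called lower by the same edgeR test. They were Mylk (-0.60, adjusted p = 2.47e-04, edgeR), Lmod1 (-0.99), Actg2 (-1.02), Myh11 (-0.77) and Acta2 (-0.59), in a fit that called 5.85% of all genes lower. With air 6 left out as well, 3 were called where 4.78% of all genes were called lower: Mylk (-0.47), Lmod1 (-0.69) and Actg2 (-0.65). With air 6 alone left out none was called, and the members' median difference was -0.26. This loss was not particular to air 6. When 1 library at a time was left out, Mylk lost its call in 14 of 24 fits and Lmod1 in 17. Limma voom called none of the 8 with all libraries.

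Smoke alone was compared with air to ask what repeated smoke did without dust. None of the 8 tested members was called by edgeR, and 0.15% of all genes tested were called in either direction. At an unadjusted p under 0.05, which 8.29% of all genes tested reached, 1 member of the 8 qualified, Lmod1 at -0.57 (95% interval -1.04 to -0.10, adjusted p = 0.466, edgeR). DESeq2 and limma voom also called none. The intervals bound how far each gene could have moved: for Mylk -0.45 to 0.11 around -0.17, for Acta2 -0.20 to 0.48 around 0.14, and for Des -0.35 to 0.33 around -0.01. The members' median of -0.25 was 0.11 without air 6, so its sign rests on that library. Without the libraries labelled silica 1, smoke 1 and smoke 2 the median was -0.26 and edgeR again called none.

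Silica and smoke together gave the largest count of called members among the 5 comparisons between groups when all libraries were fitted. Mylk fell by 0.61 ± 0.13 on the log2 scale (34.6% lower, adjusted p = 0.00126, edgeR), Lmod1 by 0.85 ± 0.23 (44.6% lower, adjusted p = 0.00682), Myh11 by 0.83 ± 0.22 (43.8% lower, adjusted p = 0.00729) and Des by 0.49 ± 0.17 (29.0% lower, adjusted p = 0.0316). That is 4 of the 8 tested members lower and 0 higher, in a comparison that called 10.8% of all genes tested lower and 11.6% higher. Actg2 (-0.59 ± 0.24, adjusted p = 0.0764, edgeR), Tagln (-0.56 ± 0.22, adjusted p = 0.0642) and Cnn1 (-0.54 ± 0.25, adjusted p = 0.124) were not called. Acta2 was at -0.29 ± 0.16 (adjusted p = 0.212, edgeR), and its 95% interval of -0.62 to 0.04 holds no rise above 0.04 on the log2 scale. All 8 differences were below 0, with a median of -0.58 against -0.01 over all genes.

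Air 6 sets much of the size of these differences. Without it, in a fit that called 9.58% of all genes lower, Myh11 was at -0.40 (adjusted p = 0.0301, edgeR), Lmod1 at -0.58 (adjusted p = 0.0394), Mylk at -0.50 (adjusted p = 0.00304) and Des at -0.23 (adjusted p = 0.185), and the members' median was -0.24. Mylk, Myh11 and Lmod1 kept their calls when any 1 of the 24 libraries was left out, and Myh11 alone of these missed the threshold with limma voom (adjusted p = 0.0501). Des lost its call without air 6, combined 1, combined 2, combined 3 or combined 6, and was not called by DESeq2 (adjusted p = 0.0829) or limma voom (adjusted p = 0.107). Without the libraries labelled silica 1, smoke 1 and smoke 2 the same 4 members were called, of 9 then tested (13.5% of all genes lower). Without those libraries and air 6 (11.9% lower) the called members were Mylk (-0.50, adjusted p = 2.75e-06, edgeR), Myh11 (-0.40) and Lmod1 (-0.58).

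**Figure D2:**
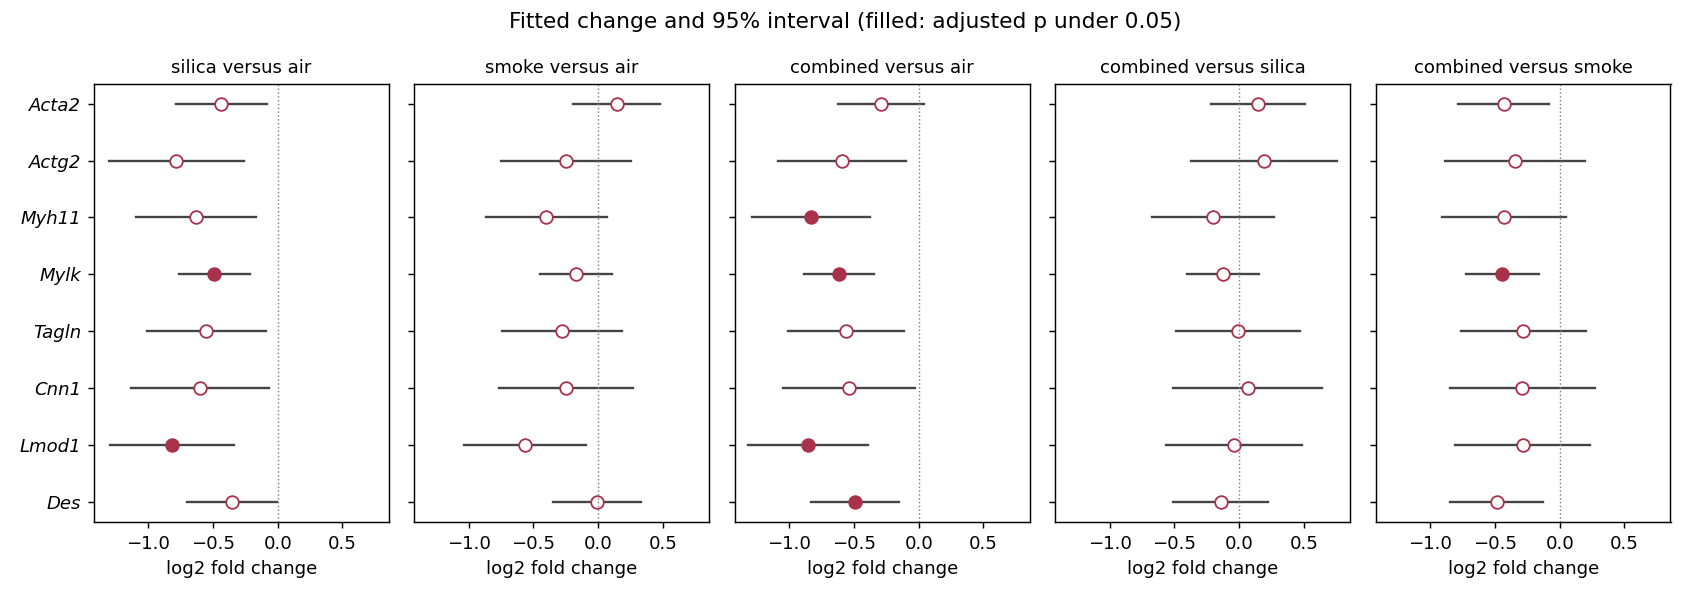
Fitted log2 fold change (horizontal axes) of the 8 tested members in 5 comparisons, with 95% intervals from edgeR as lines and filled points for adjusted p under 0.05. All 8 points lie below 0 in silica versus air and in combined versus air, while in combined versus silica the points run from -0.20 to 0.19.

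Adding smoke to silica was asked about by comparing the combined with the silica group. No member was called by edgeR (0 at an unadjusted p under 0.05), none by DESeq2 and none by limma voom, and 0.248% of all genes tested were called. Differences ran from -0.20 for Myh11 to 0.19 for Actg2, with a median of -0.02. The median was 0.10 without the libraries labelled silica 1, smoke 1 and smoke 2, and edgeR again called none. For Mylk the interval was -0.40 to 0.15 around -0.12. The interaction of silica and smoke, which asks whether the combined difference departs from the sum of the single ones, called no member by edgeR (0 at an unadjusted p under 0.05), DESeq2 or limma voom. It called 0% of all genes tested, with 977 genes at an unadjusted p under 0.05. For Mylk the interaction was 0.05 (95% interval -0.35 to 0.44), and for Lmod1 0.53 (-0.18 to 1.24).

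The combined group was set against the smoke group, from which it differed by the silica week and by the first week's smoke level. Mylk fell by 0.44 ± 0.14 (26.4% lower, adjusted p = 0.0309, edgeR), which is 1 of the 8 tested members, where 5.57% of all genes tested were called lower and 7.34% higher. Des (-0.49, adjusted p = 0.0657, edgeR), Acta2 (-0.43, adjusted p = 0.0939) and Myh11 (-0.43, adjusted p = 0.230) were not called, and all 8 differences were below 0 with a median of -0.39. Without the libraries labelled silica 1, smoke 1 and smoke 2, Mylk was at -0.58 (adjusted p = 2.58e-04, edgeR) and Acta2 was called as well (-0.49, adjusted p = 0.0463), where 10.2% of all genes were called lower. Without those and air 6, 4 members were called where 12% of all genes were called lower: Mylk (-0.56), Myh11 (-0.50), Des (-0.49) and Acta2 (-0.47). The Mylk call was lost in 9 of the 24 fits that left out 1 library, namely without smoke 3, smoke 4, smoke 5, smoke 6, combined 1, combined 2, combined 3, combined 5 or combined 6, with adjusted p up to 0.106 (edgeR), and also with limma voom (adjusted p = 0.176). Without air 6 alone, Myh11 and Des were called beside Mylk, with 7.92% of all genes called lower.

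**Figure D3:**
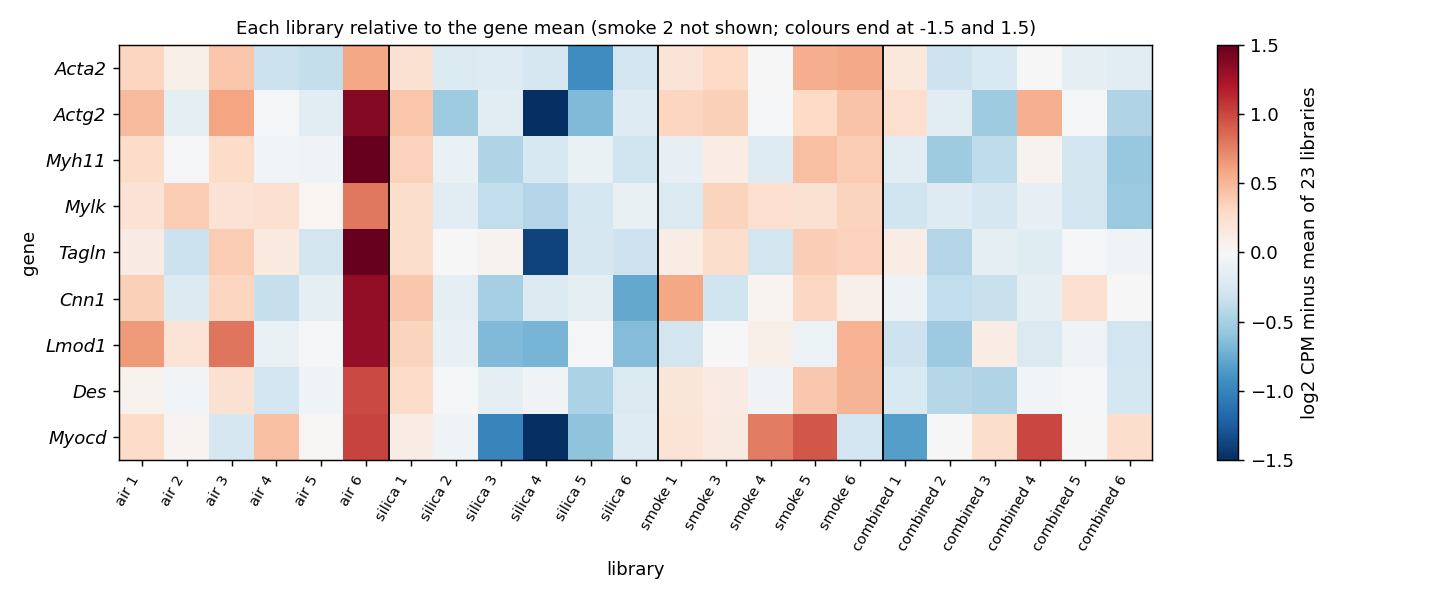
Level of each contractile gene (rows) in 23 libraries (columns, by group, smoke 2 left out), as log2 CPM minus the gene's mean over those libraries; red is above and blue below the mean, and colours end at -1.5 and 1.5. Air 6 is red in all 9 rows (mean over the 8 tested members 1.20), the library labelled silica 1 is red where the other silica columns are mostly blue (0.32), and silica 4, a shallow library, is the bluest column (-0.66).

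Correlations from rat to rat among the 8 tested members depended on the libraries that stand apart. Over the 22 libraries above 1000000 counts, with group means removed, the 28 pairs had a median Pearson r of 0.70, from 0.36 to 0.88; the points share libraries and depth. Without air 6 the median was 0.54, from -0.03 for Cnn1 with Mylk to 0.84. Without air 6 and the libraries labelled silica 1 and smoke 1 (19 libraries) it was 0.47, from -0.25 for Cnn1 with Mylk to 0.79. Outside the set, the genes most like the members' mean by the same measure were Myl9, the smooth muscle regulatory light chain that Mylk phosphorylates (r = 0.97), Clstn2, a calsyntenin (0.92), and Tpm2, beta tropomyosin (0.90). They were followed by LOC691920 (0.90), Postn, a matrix protein of activated fibroblasts (0.90), Lama2, a laminin chain of muscle basement membrane (0.88), Cdh5, the endothelial cadherin (0.87), and Fstl1 (0.87). Among all tested genes the 5th and 95th percentiles of r were -0.61 and 0.55. Without air 6 (21 libraries) Myl9 (0.93) and Clstn2 (0.86) were still among the 8 most alike and the other 6 were not. In their place stood Dync2h1 (0.91), LOC102551034 (0.84), Ccdc19 (0.83), Fam84a (0.82), RGD1565866 (0.82) and Syne1 (0.81).

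The rest of the contractile machinery was described by lists of known genes. Of 26 tested genes of the filaments, dense bodies and linked cytoskeleton, combined lungs had 11 lower and 1 higher than air by edgeR, with a median of -0.29. That comparison called 10.8% of all genes tested lower and 11.6% higher. Those lower included Cryab, a small heat shock protein that guards desmin filaments (-0.66 ± 0.11, adjusted p = 9.97e-05), Pgm5, a protein of muscle attachment plaques (-0.79 ± 0.15, adjusted p = 2.94e-04), Synpo2, an actin bundler (-0.66 ± 0.14, adjusted p = 9.07e-04), and Ppp1r14a, the inhibitor of myosin phosphatase (-0.71 ± 0.16, adjusted p = 0.00171). Tagln2, the transgelin of non-muscle cells, was the gene that rose (0.31 ± 0.10, adjusted p = 0.0271). Flna and Csrp1, abundant actin-linked proteins, were at 0.08 and 0.00 and were not called. In silica against air 3 of the 26 were lower, namely Ppp1r14a (-0.60), Pgm5 (-0.57) and Cryab (-0.46), beside 1.01% of all genes tested. In smoke against air none was called (1 higher and 1 lower at an unadjusted p under 0.05).

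Of 9 tested genes in a list of receptors and channels linked to contraction, 8 were lower in combined lungs (10.8% of all genes tested), with a median of -0.53. Agtr1a, the angiotensin II receptor (-0.66 ± 0.13, adjusted p = 7.87e-04, edgeR), Cacna1c, the L-type calcium channel (-0.55 ± 0.13, adjusted p = 0.00185), Ednrb, an endothelin receptor (-0.46 ± 0.11, adjusted p = 0.00256), and Ptgfr, the prostaglandin F receptor (-1.10 ± 0.27, adjusted p = 0.00355), were among them. The other 4 were Adra1a, Avpr1a, Ednra and Itpr1, and Trpc6 was not called (-0.05). Agtr1a was also called lower in silica against air (-0.59, adjusted p = 0.0188, edgeR). In combined against smoke lungs 5 of the 9 were called lower, beside 5.57% of all genes tested. Counts from a mixed piece of lung do not say which cells held these RNAs.

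Of 15 tested genes of kinase and phosphatase signalling on myosin, 5 were lower and 1 higher in combined lungs. Of all genes tested, 10.8% were lower and 11.6% higher there. The 5 lower genes belong to the nitric oxide and cyclic GMP arm, which relaxes the muscle. They were both soluble guanylate cyclase subunits, Gucy1a3 (-0.69 ± 0.15, adjusted p = 0.00125, edgeR) and Gucy1b3 (-0.51 ± 0.12, adjusted p = 0.00302), the kinase Prkg1 (-0.88 ± 0.20, adjusted p = 0.00188), its substrate Mrvi1 (-1.01 ± 0.27, adjusted p = 0.00696) and the phosphodiesterase Pde5a (-0.52 ± 0.13, adjusted p = 0.00406). Rhoa (0.07) and Ppp1cb (-0.02), which act in many cell types, were not called. None of the 15 was called in silica against air (1 higher and 5 lower at an unadjusted p under 0.05) or in smoke against air (0 higher and 3 lower).

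Of 12 tested regulators of the programme, 3 were lower in combined lungs and 1 higher, beside 10.8% of all genes tested lower and 11.6% higher. The list does not separate genes that drive the programme from genes that oppose it. Meis1 (-0.51 ± 0.12, adjusted p = 0.00272, edgeR), Klf5 (-0.41 ± 0.13, adjusted p = 0.0231) and Tcf21, a fibroblast factor (-0.35 ± 0.12, adjusted p = 0.0366), fell. Foxs1, a forkhead factor of perivascular cells, rose (1.14 ± 0.28, adjusted p = 0.0043). Srf, the factor that binds the CArG box, was at -0.18 and Mef2c at -0.20, and neither was called. Foxf1 was called in combined against smoke lungs (-0.51, adjusted p = 0.0229, edgeR) and not against air (-0.35).

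Genes of other cell types moved in the same comparisons. Of all genes tested, silica against air called 1.01% lower and 2.15% higher, and combined against air called 10.8% lower and 11.6% higher. In silica against air 3 of 9 pericyte markers (Notch3 -0.67, Pdgfrb -0.61, Abcc9 -0.47) and 2 of 14 fibroblast and matrix genes (Tnc -0.75, Col5a1 -0.63) were called lower by edgeR, and 2 of 5 macrophage markers (Siglec1 0.86, Cd68 0.82) and 1 of 6 alveolar type 2 markers (Lamp3 0.78) higher. None of the 10 endothelial markers was called there by edgeR (3 lower at an unadjusted p under 0.05). In combined against air lungs 5 of 9 pericyte markers were called lower (Rgs5 -1.02, Pdgfrb -0.82, Abcc9 -0.77, Notch3 -0.70, Cspg4 -0.51), and their summed level was 425 to 777 CPM in air, 246 to 508 in silica, 385 to 542 in smoke and 283 to 356 in combined lungs. Without the libraries labelled silica 1 and smoke 1 the silica range stopped at 365 and the smoke range began at 454. Of 10 endothelial markers 6 were lower, among them Ramp2 (-0.87), Cldn5 (-0.82) and Pecam1 (-0.41), and their sum was 4129 to 5307 CPM in air, 3180 to 5176 in silica, 4208 to 5108 in smoke and 3011 to 3494 in combined lungs, where silica stopped at 3755 and smoke began at 4548 without those 2 libraries. Alveolar type 1 markers were lower for 4 of 6, with a sum of 3853 to 4249 CPM in air and 2954 to 3183 in combined lungs. Markers of alveolar type 2 cells were higher for 3 of 6, with a sum of 12771 to 20162 CPM in air and 23201 to 26546 in combined lungs. Macrophage markers were higher for 2 of 5, Cd68 (1.01) and Siglec1 (1.47), with a sum of 484 to 750 CPM in air and 681 to 776 in combined lungs. Another macrophage marker, not called, was lower at an unadjusted p under 0.05 (edgeR), and the list median was 0.24. Fibroblast and matrix genes were lower for 5 of 14 (Col1a1, Col3a1, Col5a1, Pdgfra and Postn) and higher for 1, Cthrc1, a gene of fibrosis-associated fibroblasts (0.96 ± 0.28, adjusted p = 0.0129, edgeR). Their sum was 4897 to 13056 CPM in air, with air 6 at the top, and 4338 to 4783 in combined lungs. What part these shifts have in the members' differences was not tested.

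Further sources of muscle RNA were looked at. Of the cardiac markers, which lung carries in the sleeves of the pulmonary veins, 0 of 9 were called in combined against air (0 at an unadjusted p under 0.05). All 9 fitted differences were below 0, with a median of -0.44, and the summed level was 31.5 to 282 CPM in air and 18.8 to 229 in combined lungs. Of the 10 skeletal markers only 2 were high enough to test, Neb and Tnnt3. Neb was called lower (-0.59), and whether its RNA came from skeletal muscle was not tested. Airway epithelial markers were lower for 3 of 8, beside 10.8% of all genes tested. None of 5 mesothelial markers was called by edgeR (2 lower at an unadjusted p under 0.05). Without the 4 libraries that stand apart 4 mesothelial markers were called lower, beside 11.9% of all genes. No cartilage marker was high enough to test.

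Without the 4 libraries that stand apart (air 6 and those labelled silica 1, smoke 1 and smoke 2), the counts called lower in combined against air were 9 of 26 for the other contractile genes, 8 of 9 for receptors and channels, 6 of 15 for myosin signalling, 6 of 13 for regulators, 5 of 9 for pericytes, 8 of 10 for endothelium and 3 of 14 for fibroblast and matrix genes, beside 11.9% of all genes lower in that fit. Over the same 20 libraries 4 contractile genes, 2 signalling genes, 1 regulator and 2 matrix genes were called higher. The share of all genes called higher in that fit is not given here, so these counts cannot be set beside it. With all libraries it was 11.6%. In silica against air 7 of the 26 other contractile genes and 6 of the 9 receptors and channels were then called lower, beside 4.78% of all genes.

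**Figure D4:**
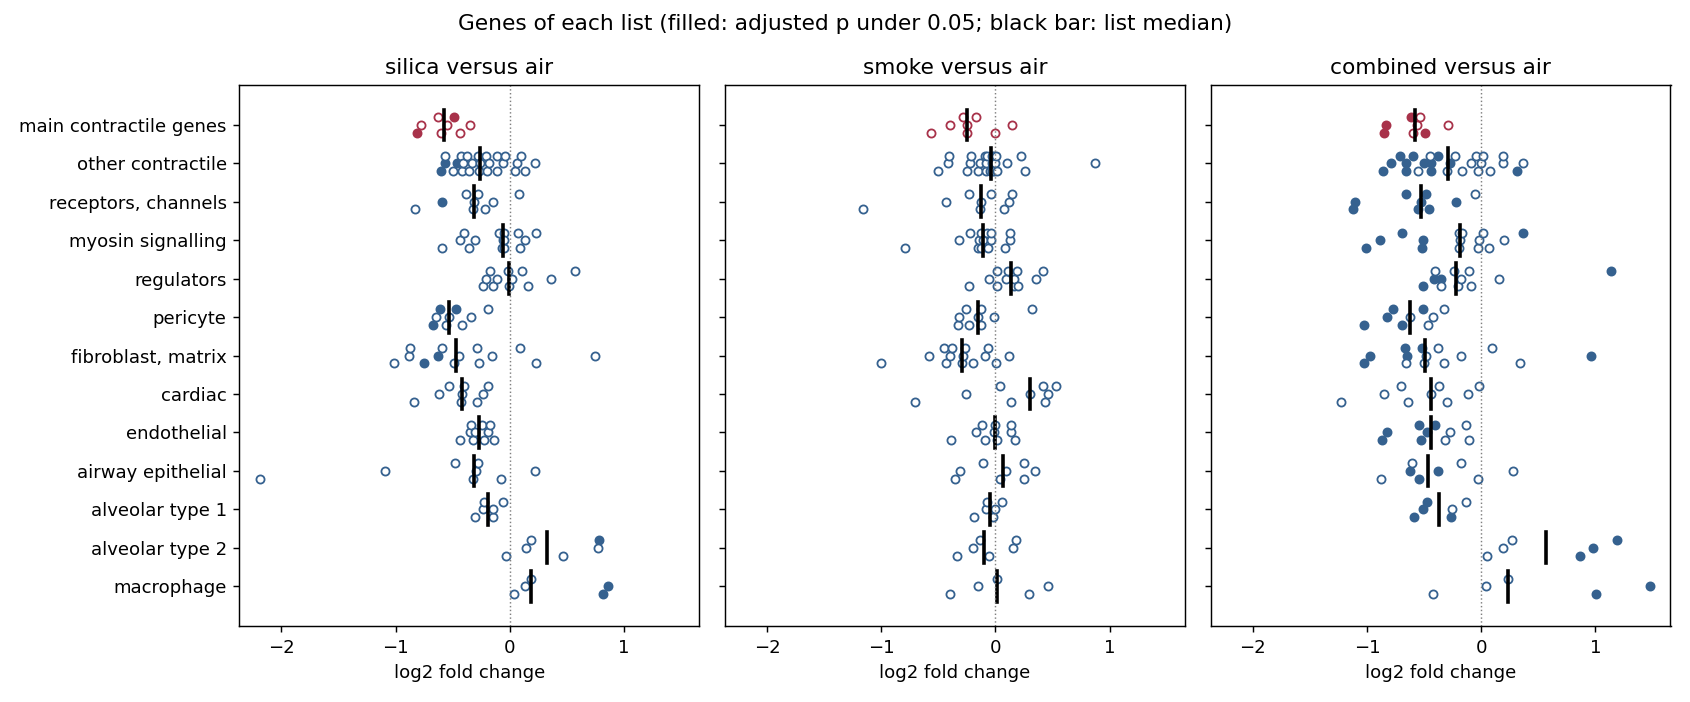
Log2 fold change (horizontal axes) of each tested gene in the contractile set and 12 other lists, for silica, smoke and combined lungs against air; filled points have adjusted p under 0.05 by edgeR and black bars are list medians. In the combined panel the bars of alveolar type 2 cells (0.57) and macrophages (0.24) lie above 0 and all the others below. Those below are pericytes (-0.62), the contractile set (-0.58), receptors and channels (-0.53), fibroblast and matrix genes (-0.49), airway epithelium (-0.46), cardiac markers (-0.44), endothelium (-0.44), alveolar type 1 cells (-0.37), other contractile genes (-0.29), regulators (-0.22) and myosin signalling (-0.18). In the smoke panel no point is filled.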

How the data were processed

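The authors deposited 1 table of raw read counts per gene for the 24 lung libraries. Per the labels' protocols, 1 microgram of total RNA was depleted of ribosomal RNA and made into stranded libraries. Tools named in the submitters' processing notes are HTSeq 0.11.2, HISAT2 2.1.0, SAMtools 1.8, Trimmomatic 0.35, Cufflinks and bcl2fastq 2.19. For the genome build and the strand setting of the counting: not given in the sources used here. RefSeq places non-coding genes or pseudogenes over Mylk, Lmod1, Des and Myocd, whose reads could be shared.

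Of 30069 lines, 26 repeats of a gene were removed, and 30043 genes remained. All 9 members were found by symbol, and 168 of 168 genes of 15 other lists by symbol or, for 6, by gene ID. Genes were kept by edgeR's filterByExpr (minimum count 10), which left 13322 genes and 8 members. The main test was edgeR 4.0.16 (R 4.3.3), TMM scaling, a quasi-likelihood fit with 1 term per group over all 24 libraries, two-sided, Benjamini-Hochberg adjusted over all genes tested, threshold 0.05. Errors are the fold change divided by the root of F. Alternatives were DESeq2 1.42.0 size factors and test, limma 3.58.1 voom, no filter, the compared groups alone, and leaving out libraries. Groups came from the treatment label, and replicate numbers only name rats. The members, lists and tests were chosen with earlier results of these data known. Genes of the other lists were named by rule: the 4 called with the smallest p and the 2 most abundant not called. A few listed genes are counted but not reported by name here. Others were named after their values were seen where a count was small.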

Additional observations from a re-analysis of the deposited data

Results flagged for a closer look

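In each group of 6 libraries the gap between the extreme value and its nearest neighbour, divided by the range, was set against Dixon's 95% value of 0.625. Of 36 sets (9 genes in 4 groups) 11 passed it, and chance flags about 1 in 20. Of the 11, 6 were air 6 as the highest air library: Myh11 (0.8746), Tagln (0.7427), Cnn1 (0.7344), Des (0.6997), Mylk (0.681) and Actg2 (0.6319). The library labelled smoke 2, which holds 0 counts for both genes, was the lowest for Actg2 (0.7318) and Acta2 (0.6813). The library labelled silica 1 was the highest silica library for Mylk (0.6583) and Myh11 (0.6317). Combined 6 was the lowest combined library for Mylk (0.6331), at 369 CPM. These sets share libraries, so the 11 are not independent of each other.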

How the results depend on the processing

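No paired analysis was possible because the replicate numbers were given in accession order and the labels carry none that link rats across groups.

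In silica against air, where 2 members were called, DESeq2 called 1, limma voom 0, voom with quality weights 1, the compared groups alone 0, the libraries above 1000000 counts 1, and the fit without the libraries labelled silica 1, smoke 1 and smoke 2 called 5. Leaving out 1 library at a time gave 0 to 5 calls. There were 5 without silica 1, and 0 without air 6 and without several others, among them air 1 and combined 1. In combined against air, where 4 were called, limma voom called 2, and leaving out 1 library gave 3 to 6. Des lost that call under 5 of the alternatives other than single libraries and Myh11 with limma voom. In combined against smoke, where 1 was called, quality weights called 4, the compared groups alone 4, the fit without those 3 libraries 2, and that without air 6 as well 4. Leaving out 1 library gave 0 to 3. The share of all genes called lower moved between fits as well. In silica against air it was 1.01% with all libraries and 5.85% without those 3. In combined against air it was 10.8% with all libraries and 9.58% without air 6. In combined against smoke it was 5.57% with all libraries, 10.2% without those 3 and 12% without air 6 as well. For the other alternatives the share is not given here, so their counts cannot be set beside it. The other 3 comparisons gave 0 calls under each alternative. The Mylk call in combined against air held under all of them. Mylk in silica against air was lost with limma voom, with the compared groups alone and in 14 of 24 fits that left out 1 library, and Lmod1 in 17 of 24.

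Signs that turned all belong to values that were not called. In smoke against air Myh11 was at 0.022 with quality weights and 0.10 without the 4 libraries (air 6 included), Tagln at 0.12 and 0.14, Actg2 at 0.084 and 0.082, and Des at 0.24 and 0.25, with DESeq2 at 0.027 and voom at 0.14 for Des. Cnn1 was at 0.019 with quality weights and Mylk at 0.063 without the 4 libraries. In combined against silica Tagln was at 0.048 with DESeq2, 0.035 with voom, 0.033 with quality weights, 0.082 without the 3 libraries and 0.072 without the 4, and Lmod1 at 0.059 with quality weights, 0.12 and 0.11. In the interaction Acta2 was at -0.0097 with DESeq2, -0.079 with voom, -0.12 with quality weights, -0.0025 without the 4 libraries and -0.0012 with the libraries above 1000000 counts, Mylk at -0.054 with quality weights, -0.093 without the 4 and -0.022 with those above 1000000, and, with quality weights and without the 4, Myh11 at -0.16 and -0.19 and Tagln at -0.089 and -0.066. The cause was not tested.

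Leaving out 1 library gave, in smoke against air, ranges of -0.49 to 0.032 for Myh11, -0.39 to 0.13 for Tagln, -0.41 to 0.16 for Cnn1, -0.10 to 0.25 for Des and -0.35 to 0.10 for Actg2. In combined against silica they were -0.0025 to 0.29 for Acta2, -0.063 to 0.085 for Tagln, -0.050 to 0.25 for Cnn1 and -0.13 to 0.12 for Lmod1, and in the interaction -0.15 to 0.15 for Acta2, -0.24 to 0.33 for Myh11, -0.14 to 0.38 for Tagln, -0.10 to 0.50 for Cnn1 and -0.077 to 0.15 for Mylk.

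Depth limits Myocd, Cnn1, Lmod1 and Actg2 most, with at most 37, 160, 154 and 225 counts in any library.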

Other observations

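In combined against smoke lungs, which differ in the silica week and in the first week's smoke level, genes around the contractile set also differed by edgeR. Smtn, smoothelin, a marker of contractile smooth muscle, was lower (-0.71 ± 0.18, adjusted p = 0.01) and had not been called against air (-0.44, adjusted p = 0.061). Synpo2 (-0.64), Synm, a desmin partner (-0.59), and Cryab (-0.58) were lower too, and Tagln2 was higher (0.31). Of the 12 tested regulators 3 were lower, Meis1 (-0.52), Foxf1 (-0.51) and Klf4 (-0.51), and 0 higher. Pericyte markers were lower for 5 of 9, and endothelial markers for 6 of 10. In this comparison 5.57% of all genes tested were called lower.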
